A study of Mus musculus with 16 samples.

Results

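The genotype difference was described in myeloid progenitors (MP cells, sorted from bone marrow as c-Kit-positive cells without lineage markers or Sca1) of mice without Parp-2 (Parp-2-/-) and of wild-type (WT) mice. The members were the 4 arrays whose titles name Parp-2-/- MP cells and the 4 whose titles name WT MP cells, 8 of the 16 arrays of the series. All mice had the C57BL/6J background. The groups were irradiated Parp-2-/- MP cells, irradiated WT MP cells, unirradiated Parp-2-/- MP cells and unirradiated WT MP cells, with 2 pools each. The irradiated mice had received 5 Gy of gamma radiation, and the series title gives 2.5 hours after it. A pool came from at least 3 mice, so each value is an average over mice. The labels do not say in which part of the gene the Parp-2-/- allele is interrupted, how the line was bred, or how old the mice were. The other 8 arrays held LSK cells, sorted for c-Kit and Sca1 without lineage markers, the fraction that holds the stem cells, of the same genotypes and states.

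Parp-2 is a nuclear enzyme that binds DNA breaks and, like Parp-1, joins chains of ADP-ribose to itself and to nearby proteins, which draws repair factors to the break. MP cells are a mixture of progenitors with erythroid and megakaryocytic fate and progenitors with granulocytic and monocytic fate, and they divide fast. In mice, Parp-2 is known for a part in the survival of blood-forming cells after irradiation.

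Several markers went with the sort, and others did not separate the cell types. Mpo, the myeloperoxidase gene of granulocytic progenitors, read 11.6 to 12 log2 units of intensity on the 8 MP arrays and 11 to 11.4 on the LSK arrays. Car1, an erythroid carbonic anhydrase gene, read 10.6 to 11.5 on the MP arrays against 6.04 to 7.99 on the LSK arrays. Kit lay above the median of every MP array, at 8.62 to 9.06, and read 8.78 to 9.46 on the LSK arrays, also sorted for c-Kit. The MP marker Csf3r went the other way, at 5.61 to 6.57 on the MP arrays and 6.27 to 7.14 on the LSK arrays. Itga2b overlapped, at 5.63 to 6.1 on the MP arrays and 5.54 to 6.21 on the LSK arrays. Hlf, a stem cell transcription factor gene, read 5.71 to 6.57 on the MP arrays against 8.36 to 9.08 on the LSK arrays, and the stem cell surface gene Procr lay above the array median on 0 of 8 MP arrays.

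Few rows passed the test of genotype, and those that did lie on chromosome 14, which carries Parp2. Over both irradiation states, 4 of 22961 tested rows (0.0174%) passed at an adjusted p under 0.05: Ccnb1ip1 was higher in Parp-2-/- MP cells, and Parp2, Rnase12 and a row that carries 3 gene symbols were lower. The comparison asks what Parp-2 loss changes in MP cells whatever their irradiation state. It was made with a linear model of genotype and irradiation on the 8 MP arrays (limma, moderated variances, Benjamini-Hochberg adjustment over all tested rows), and differences are Parp-2-/- minus WT in log2 units with their standard error. The median standard error over the rows was 0.105 and the median absolute difference 0.0774. At an unadjusted p under 0.05 there were 1320 rows (5.75%), 574 higher (2.5%) and 746 lower (3.25%) in Parp-2-/- cells. At an unadjusted p under 0.001 there were 52 (0.226%). The size of the difference reached 1 log2 unit in 23 rows.

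The windows before the starts of the 3 named genes that passed are shown because these genes lie in the region of Parp2 and did not all move in the same direction. Relative to the Parp2 start, the start of Ccnb1ip1 lies at -12.2 kb and that of Rnase12 at 249 kb. The starts of Osgep (117 kb) and Pnp (136 kb), which did not pass, lie between those of Parp2 and Rnase12. The sequences are RefSeq's (GRCm38.p6), the 250 bases before each gene's start, 5′ to 3′ on the gene's own strand. The Parp2 window is chr14:50807666-50807915 on the plus strand, the Ccnb1ip1 window chr14:50795729-50795978 on the minus strand, and the Rnase12 window chr14:51057243-51057492 on the minus strand. Capitals mark matches to GGGCGG (a GC box) and ATTTGCAT (an octamer) on either strand; TATAAA and CCAAT were also searched on both strands and had no match in these windows.
Parp2: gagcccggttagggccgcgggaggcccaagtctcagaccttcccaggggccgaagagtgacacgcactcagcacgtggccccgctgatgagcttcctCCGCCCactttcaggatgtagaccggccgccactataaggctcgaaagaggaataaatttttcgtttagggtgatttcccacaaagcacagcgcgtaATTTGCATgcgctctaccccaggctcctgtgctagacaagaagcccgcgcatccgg
Ccnb1ip1: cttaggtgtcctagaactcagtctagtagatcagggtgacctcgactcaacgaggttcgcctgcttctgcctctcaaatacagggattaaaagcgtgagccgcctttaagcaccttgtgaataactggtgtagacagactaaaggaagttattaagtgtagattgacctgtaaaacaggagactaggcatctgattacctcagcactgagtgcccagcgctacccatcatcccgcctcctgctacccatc
Rnase12: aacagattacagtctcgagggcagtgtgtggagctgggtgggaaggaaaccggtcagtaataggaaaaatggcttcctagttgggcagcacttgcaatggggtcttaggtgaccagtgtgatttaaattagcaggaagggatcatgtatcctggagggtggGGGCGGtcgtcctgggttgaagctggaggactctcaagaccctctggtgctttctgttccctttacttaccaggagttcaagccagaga
The GGGCGG match stands on the opposite strand in the Parp2 window, 153 to 148 bases before the start, and on the gene's own strand in the Rnase12 window, 89 to 84 bases before it. ATTTGCAT stands 56 to 49 bases before the start of Parp2. Among 32851 RefSeq windows of the same length, GGGCGG occurs in 32.7%, ATTTGCAT in 1.6%, TATAAA in 12.4% and CCAAT in 33.8%, on either strand and with no overlap among these matches in the windows shown. The Ccnb1ip1 window holds none of the 4 motifs. Of the 180 named genes, 149 had an entry in the promoter table.

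The level of Parp2 itself bears on the genotype labels. Parp2 read 6.75 and 6.76 on the irradiated Parp-2-/- arrays and 6.74 and 7.11 on the unirradiated ones, against 8.40 and 8.36 on the irradiated WT arrays and 8.40 and 7.98 on the unirradiated ones. Every Parp-2-/- array lay below every WT array. The difference was -1.44 ± 0.13 (2.72-fold lower in Parp-2-/- cells; adjusted p = 0.00642, limma), and the exact two-sided permutation test within irradiation states gave p = 0.0556, the smallest value its 36 arrangements allow. Without the irradiated Parp-2-/- pool 1, the irradiated Parp-2-/- pool 2 or the irradiated WT pool 2 the limma adjusted p became 0.0594, 0.0707 and 0.0551, so the call then ended while the difference stayed between -1.42 and -1.41. It also ended when rows without a symbol were tested too (adjusted p = 0.15). Where the probes of this row lie relative to the interrupted part of the gene is not given in the labels, and the remaining signal is no measure of protein.

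**Figure D1:**
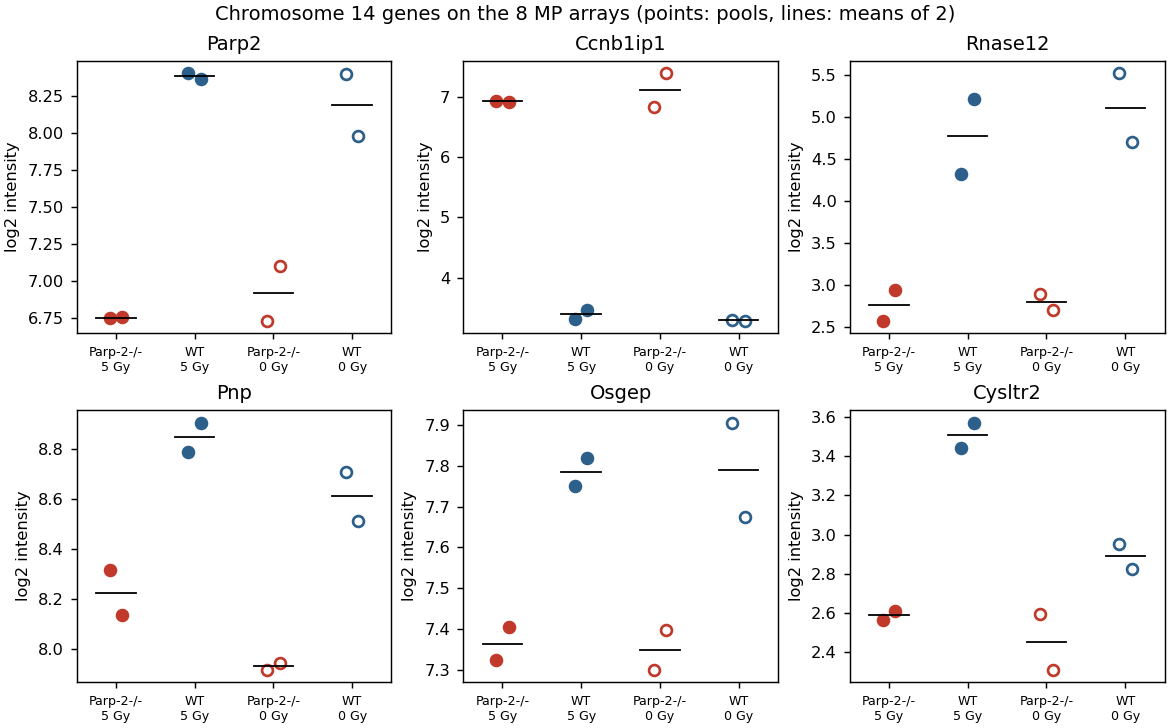
Log2 intensity of 6 chromosome 14 genes on each of the 8 MP arrays, by genotype and irradiation dose in Gy; points are pools (filled, irradiated; open, unirradiated) and lines are means of 2 pools. Ccnb1ip1 reads 6.83 to 7.38 on the Parp-2-/- arrays and 3.29 to 3.48 on the WT arrays. The genotypes do not overlap in any of the 6 genes within a state. For Rnase12, Pnp and Cysltr2 this was a condition of the ranking that named them, so it adds no support.

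Ccnb1ip1 had the largest difference of all tested rows. The gene encodes a RING-finger protein that in mice is needed for crossover formation in meiosis. Ccnb1ip1 read 6.93 and 6.91 on the irradiated Parp-2-/- arrays and 6.83 and 7.38 on the unirradiated ones, against 3.31 and 3.48 on the irradiated WT arrays and 3.30 and 3.29 on the unirradiated ones. The 4 WT arrays read below the median of their array, a range in which expression above background is not shown, while the 4 Parp-2-/- arrays read far above it. The fitted difference was 3.67 ± 0.13 (adjusted p = 1.22e-06, limma; exact permutation p = 0.0556, the smallest possible). With the WT arrays set to their medians, Ccnb1ip1 was at least 4.67-fold higher in Parp-2-/- MP cells.

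Rnase12, a member of the ribonuclease A family, read low in both genotypes. Rnase12 read 2.57 and 2.94 on the irradiated Parp-2-/- arrays and 2.89 and 2.70 on the unirradiated ones, against 4.32 and 5.22 on the irradiated WT arrays and 5.52 and 4.71 on the unirradiated ones. The Parp-2-/- arrays all lay below their medians, and 2 of the 4 WT arrays lay above theirs. The fitted difference was -2.17 ± 0.22 (adjusted p = 0.0145, limma; exact permutation p = 0.0556, the smallest possible). Since arrays of both genotypes lay below their medians, the size of the Rnase12 difference is not measured. The call ended when any of the irradiated Parp-2-/- pools, the unirradiated Parp-2-/- pools or the irradiated WT pool 2 was left out (adjusted p = 0.0511 to 0.097), and in the 16-array fit, the fit with a trended prior and the test of all rows (adjusted p = 0.236, 0.0584 and 0.267).

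The remaining called row carries 3 gene symbols and is therefore given without a name. It read 6.20 and 6.13 on the irradiated Parp-2-/- arrays and 6.13 and 5.64 on the unirradiated ones, against 7.18 and 7.09 on the irradiated WT arrays and 6.99 and 6.93 on the unirradiated ones. Its genotypes did not overlap, with a difference of -1.02 ± 0.11 (adjusted p = 0.018, limma).

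The neighbourhood of Parp2 was followed along the gene order of chromosome 14. Of 699 chromosome 14 genes with a row, 274 come before Parp2 and 424 after it. Among the 50 genes nearest to Parp2, 25 on each side, 7 (14%) had an unadjusted p under 0.05 and 4 an unadjusted p under 0.001. Among the 150 genes that stand 26 to 100 places away, 8% had an unadjusted p under 0.05 and 2 were under 0.001, and among the 498 genes farther away the share was 5.62%, with 5 under 0.001. On the other chromosomes the share was 5.86% of 19156 genes, with 32 under 0.001. Most of the 25 genes before Parp2 are olfactory receptor genes, whose rows read low on these arrays (median level of those 25 rows, 2.89). Of the 50, Ccnb1ip1 and Rnase12 alone passed after adjustment.

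**Figure D2:**
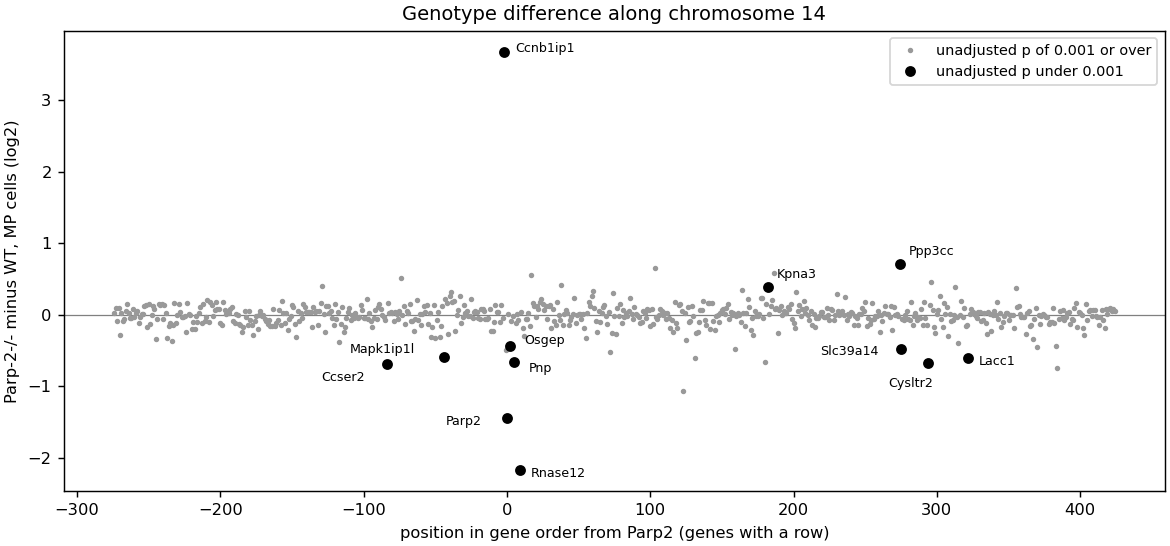
Genotype difference in MP cells (Parp-2-/- minus WT, log2) of 699 chromosome 14 genes against their place in the gene order counted from Parp2; black points had an unadjusted p under 0.001. Ccnb1ip1 (3.67), Parp2 (-1.44) and Rnase12 (-2.17) stand apart within a stretch from 2 genes before to 9 genes after Parp2, and 7 further black points lie more than 25 genes away.

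Genes beside Parp2 did not share 1 direction. Rpph1, the RNA component of ribonuclease P, is the neighbour whose gene shares its promoter region with Parp2 on the opposite strand. Rpph1 read 8.44 and 9.31 on the irradiated Parp-2-/- arrays and 9.97 and 9.19 on the unirradiated ones, against 9.47 and 9.27 on the irradiated WT arrays and 10.12 and 10.04 on the unirradiated ones. The genotypes overlapped in the irradiated state, and the difference of -0.50 ± 0.20 did not pass (adjusted p = 0.812, limma). Pnp, the purine nucleoside phosphorylase gene, read 8.32 and 8.13 on the irradiated Parp-2-/- arrays and 7.92 and 7.94 on the unirradiated ones, against 8.79 and 8.91 on the irradiated WT arrays and 8.71 and 8.51 on the unirradiated ones. These groups did not overlap, yet the difference of -0.65 ± 0.09 did not pass (adjusted p = 0.0758, limma).

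Osgep, which encodes a subunit of a tRNA-modifying complex, read 7.32 and 7.41 on the irradiated Parp-2-/- arrays and 7.30 and 7.40 on the unirradiated ones, against 7.75 and 7.82 on the irradiated WT arrays and 7.91 and 7.68 on the unirradiated ones. The difference was -0.43 ± 0.09 (adjusted p = 0.386, limma), and another Osgep row gave -0.22. Apex1, the apurinic endonuclease gene of base excision repair that lies between Osgep and Pnp in this region, differed by -0.09 ± 0.09 (adjusted p = 0.972). Ttc5 differed by -0.05 ± 0.14 and Mettl17 by 0.23 ± 0.09, and neither passed (adjusted p = 0.991 and 0.789).

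Chromosome 14 held more of the p-values under 0.001 than its size alone gives, with Parp2 itself among them. It carries 3.63% of the rows placed on a chromosome but 28% of those with an unadjusted p under 0.001, that is 14 of its 813 rows (1.72%) against 36 of 21572 elsewhere (0.167%). At an unadjusted p under 0.05 the shares were 6.89% on chromosome 14 and 5.78% elsewhere. Chromosome 14 did not stand out there, since chromosomes 3 (8.66%), 19 (7.25%) and 13 (6.9%) had higher shares. Beyond the neighbours of Parp2, the rows with an unadjusted p under 0.001 included Ccser2 (-0.69 ± 0.14), Mapk1ip1l (-0.59 ± 0.11), the zinc transporter gene Slc39a14 (-0.48 ± 0.08), the leukotriene receptor gene Cysltr2 (-0.68 ± 0.12), Lacc1 (-0.60 ± 0.10), the calcineurin subunit gene Ppp3cc (0.71 ± 0.13) and the importin gene Kpna3 (0.39 ± 0.08). None of these 7 passed after adjustment (adjusted p = 0.24 to 0.386). Cysltr2 lay below the array medians in both genotypes, so the size of its difference is not measured. Slc39a14 averaged 4.50 in Parp-2-/- cells and 4.98 in WT cells, and its 4 unirradiated arrays of both genotypes lay below their medians, which limits its size too.

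The LSK arrays, which the choice of these rows did not use, show which of the differences were present in another cell type. Of the 14 chromosome 14 rows with an unadjusted p under 0.001 in MP cells, 11 had the same sign in LSK cells and 8 also had an unadjusted p under 0.05 there with that sign, while 0 were opposite at that threshold. Of the 36 such rows on other chromosomes, 22 had the same sign and 0 had an unadjusted p under 0.05 in either direction. Over all tested rows, 49.7% had the same sign in both cell types, 2.33% were at an unadjusted p under 0.05 in LSK cells with the same sign and 2.23% with the opposite sign. The genotype effect in LSK cells alone called 0 of 22961 rows after adjustment (0%; 1046 at an unadjusted p under 0.05). The named rows among the 8 were Parp2 (-1.42 in LSK cells, unadjusted p = 5.1e-05), Cysltr2 (-1.42, 0.000633), Ccser2 (-0.76, 0.00295), Ccnb1ip1 (0.58, 0.00636), Osgep (-0.47, 0.0161), Kpna3 (0.42, 0.021) and Mapk1ip1l (-0.37, 0.0474). Ccnb1ip1 read below the median on all 8 LSK arrays, so the size of its LSK difference is not measured. The labels do not say whether MP and LSK pools came from the same mice, and the LSK reading was chosen after the MP values were seen.

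**Figure D3:**
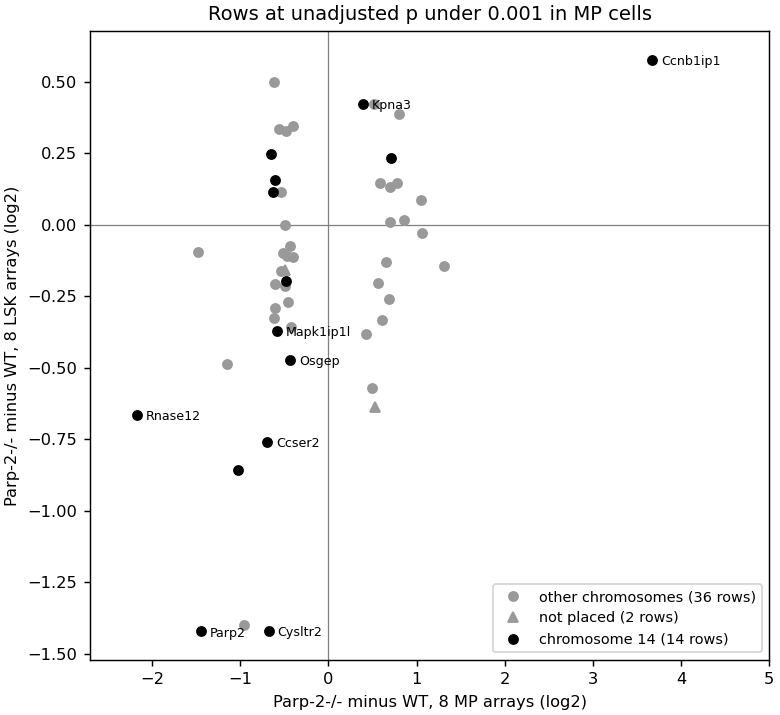
Genotype difference (Parp-2-/- minus WT, log2) of the 52 rows with an unadjusted p under 0.001 in MP cells: the 8 MP arrays on the horizontal axis against the 8 LSK arrays on the vertical axis. Of the 14 chromosome 14 rows (black), 11 have the same sign on both axes, against 22 of 36 rows on other chromosomes (grey circles); triangles are 2 rows placed on no chromosome.

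Ccnb1ip1 was the row whose genotype difference itself differed between the cell types. It read 4.49 and 4.51 on the irradiated Parp-2-/- LSK arrays and 3.96 and 4.02 on the unirradiated ones, against 3.45 and 3.89 on the irradiated WT LSK arrays and 3.77 and 3.58 on the unirradiated ones. All 8 LSK arrays therefore read below any Parp-2-/- MP array. The MP difference exceeded the LSK difference by 3.09 ± 0.19 log2 units in a fit to all 16 arrays (adjusted p = 2.96e-05, limma), and this was the 1 row called of 22961 (0.00436%). For Parp2 the same test gave -0.02 ± 0.26 (adjusted p = 0.995), and for Rnase12 -1.50 ± 0.51 (adjusted p = 0.973).

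Irradiation did not detectably alter the genotype difference of any row. With the states fitted separately, Ccnb1ip1 was the 1 row called in irradiated cells (3.52 ± 0.18, adjusted p = 0.000208; 0.00436% of rows) and the 1 row called in unirradiated cells (3.81 ± 0.18, adjusted p = 0.000104; 0.00436% of rows). Parp2 differed by -1.62 ± 0.17 in irradiated cells (adjusted p = 0.0725) and by -1.26 ± 0.17 in unirradiated cells (adjusted p = 0.385). The interaction called 0 of 22961 rows (0%) in limma, with 708 at an unadjusted p under 0.05, and its median standard error was 0.213. Across all rows the 2 states' differences had a correlation of 0.19 and the same sign in 52.8%. These are descriptions over rows that share arrays, normalisation and, within a gene, probes.

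No row outside chromosome 14 passed, and the named genes of the other chromosomes are therefore given by their values. The genes named first are those whose genotypes did not overlap in either state, in the same direction, which held for 1351 rows (5.88%), 645 higher (2.81%) and 706 lower (3.07%) in Parp-2-/- cells. Myh10, which encodes non-muscle myosin heavy chain IIB, read 6.59 and 6.99 on the irradiated Parp-2-/- arrays and 7.35 and 7.46 on the unirradiated ones, against 5.42 and 5.40 on the irradiated WT arrays and 6.53 and 6.79 on the unirradiated ones. The difference was 1.06 ± 0.15 (adjusted p = 0.0857, limma), and it passed in the fits with 4 group means, all 16 arrays and array weights (adjusted p = 0.0386, 0.0176 and 0.0226). Ssx2ip, a centrosome and cell adhesion gene, differed by 0.69 ± 0.09 (adjusted p = 0.0608) and passed with array weights (0.0226).

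Other named genes that read higher in Parp-2-/- cells without passing were Cpox, an enzyme of haem synthesis (0.81 ± 0.13, adjusted p = 0.198), the metalloprotease gene Adamts3 (0.78 ± 0.13, 0.198, with several other Adamts3 rows between -0.28 and 0.60), the copper transporter gene Atp7b (0.70 ± 0.12, 0.25), Aplp2 (0.65 ± 0.13, 0.386), the fatty acid desaturase gene Fads1 (0.57 ± 0.11, 0.318) and Gclc, the catalytic subunit of the enzyme that starts glutathione synthesis (0.52 ± 0.11, 0.386). Those that read lower without passing were the neutrophil gene S100a8 (-1.48 ± 0.26, 0.25), the Fc receptor gamma chain gene Fcer1g (-0.62 ± 0.10, 0.173), the lymphocyte and myeloid surface gene Cd52 (-0.56 ± 0.09, 0.158) and Ano10 (-0.45 ± 0.08, 0.289). S100a8 read 6.07 and 5.43 on the irradiated Parp-2-/- arrays and 5.35 and 6.15 on the unirradiated ones, against 7.97 and 7.44 on the irradiated WT arrays and 6.97 and 6.54 on the unirradiated ones. Every Parp-2-/- array thus lay below every WT array, but no overlap within each state was a condition for naming S100a8 here.

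Gene lists were described by counts and medians, since no list member other than Parp2 passed. The 32 lists held 712 genes, and 638 had a row. Over all tested rows the median difference was -0.005, with 11082 above 0 and 11879 below 0. At an unadjusted p under 0.05 (limma), 2.5% of all tested rows were higher and 3.25% lower in Parp-2-/- cells. Without overlap between genotypes in either state, 2.81% were higher and 3.07% lower. In sorted pools, fewer cells of a type and less RNA per cell cannot be told apart.

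Genes of granulocyte and monocyte progenitors read lower in Parp-2-/- MP cells as a list, although 0 of its 24 measured members passed. All 24 differences were below 0, with a median of -0.30, and 11 had an unadjusted p under 0.05. Of all tested rows, 3.25% were lower at that threshold. The neutrophil elastase gene Elane read 9.08 and 8.95 on the irradiated Parp-2-/- arrays and 8.95 and 9.03 on the unirradiated ones, against 9.71 and 9.90 on the irradiated WT arrays and 9.60 and 9.01 on the unirradiated ones. The genotypes of Elane overlapped in the unirradiated state, through WT pool 2, and the difference was -0.55 ± 0.15 (adjusted p = 0.559, limma). Ly86, a partner of a toll-like receptor homologue, differed by -0.47 ± 0.10 (adjusted p = 0.438), with no overlap in either state. Fcgr3 and Cd34, whose proteins mark granulocyte and monocyte progenitors within the MP gate, differed by -0.52 ± 0.19 and -0.35 ± 0.155 (adjusted p = 0.775 and 0.869); Cd34 was chosen after its value was seen.

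The mean level of this list was 7.74 and 7.52 on the irradiated Parp-2-/- arrays and 7.65 and 7.42 on the unirradiated ones, against 8.0 and 7.97 on the irradiated WT arrays and 7.98 and 7.56 on the unirradiated ones. The unirradiated WT pool 2 lay among the Parp-2-/- pools, while the other 3 WT pools lay above all of them. In each group pool 2 read lower than pool 1. The median difference was -0.19 without the unirradiated WT pool 1, and -0.38 without the unirradiated WT pool 2. In LSK cells the list's median was 0.01. Its members Ctsg and Cebpe lie on chromosome 14.

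The mast cell and basophil list leaned lower too, while the neutrophil list had a lower mean level with its members split. In these lists 7 of 15 mast cell genes and 11 of 17 neutrophil genes lay below the array median on all 4 WT arrays. Of 15 mast cell and basophil genes, 12 were below 0 (median -0.13). At an unadjusted p under 0.05 there were 4, all lower, against 3.25% of all tested rows. The mast cell protease gene Cpa3 read 6.85 and 6.51 on the irradiated Parp-2-/- arrays and 7.02 and 6.08 on the unirradiated ones, against 8.03 and 8.07 on the irradiated WT arrays and 7.94 and 7.0 on the unirradiated ones. Its genotypes overlapped narrowly in the unirradiated state (-1.14 ± 0.24, adjusted p = 0.389, limma). Mcpt8, a basophil protease gene, differed by -0.60 ± 0.15 (adjusted p = 0.54). It lies on chromosome 14, as do Mcpt1, Mcpt2, Mcpt4 and Cma1 of this list. In LSK cells Mcpt8 differed by -0.73 (unadjusted p = 0.0503, limma). Of 17 mature neutrophil genes, 9 were below 0 and 8 above, with a median of -0.03. The lower mean level of the neutrophil list was therefore not a shift shared by its members, and S100a8 alone differed by -1.48. The 4 neutrophil genes with an unadjusted p under 0.05 were all lower, among them S100a8, S100a9 (-0.74 ± 0.23) and the chemokine receptor gene Cxcr2 (-0.63 ± 0.26). The mean level of the mast cell list was 4.64 to 4.74 on the Parp-2-/- arrays and 4.80 to 4.97 on the WT arrays, and that of the neutrophil list 4.09 to 4.19 on the Parp-2-/- arrays and 4.24 to 4.42 on the WT arrays.

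Erythroid genes read higher in Parp-2-/- MP cells as a list, again with 0 of 19 measured members passing. Of the 19, 16 were above 0, with a median of 0.37. At an unadjusted p under 0.05 there were 10, all higher, against 2.5% of all tested rows. Rhag, a Rhesus-complex gene of the red cell membrane, read 6.64 and 7.36 on the irradiated Parp-2-/- arrays and 7.20 and 8.16 on the unirradiated ones, against 4.96 and 4.78 on the irradiated WT arrays and 6.13 and 7.47 on the unirradiated ones. The irradiated genotypes of Rhag stood apart and the unirradiated ones overlapped, and the difference was 1.51 ± 0.35 (adjusted p = 0.512, limma). Rhd (1.13 ± 0.36), Cldn13 (0.93 ± 0.35) and Ermap (0.88 ± 0.25) had the next largest differences (adjusted p = 0.611 to 0.787); Ermap was chosen after its value was seen. The erythroid transcription factor genes Gata1 and Klf1 differed by 0.43 ± 0.20 and 0.25 ± 0.27 (adjusted p = 0.886 and 0.975).

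The mean level of the erythroid list was 6.20 and 6.57 on the irradiated Parp-2-/- arrays and 6.94 and 7.26 on the unirradiated ones, against 5.81 and 5.84 on the irradiated WT arrays and 6.46 and 7.13 on the unirradiated ones. The unirradiated WT pool 2, which was the lowest WT pool for granulocyte and monocyte genes, was the highest WT pool here. In each group pool 2 read higher than pool 1. The median difference ran between 0.29 and 0.50 when single arrays were left out. Of 19 haem synthesis and iron genes, 14 were above 0 (median 0.12), with Cpox the largest. At an unadjusted p under 0.05, 5 were higher and 1 lower, against 2.5% and 3.25% of all tested rows. In LSK cells the erythroid list had a median of -0.001. Its mean level there was only 5.07 to 5.39, against 5.81 to 7.26 on the MP arrays, which limits what that median can show. Megakaryocyte and platelet genes did not share the higher direction of the erythroid list in MP cells. Of 19, 12 were below 0 (median -0.08). At an unadjusted p under 0.05, against 3.25% of all tested rows, there were 3, all lower. Among them were Pf4, the platelet factor 4 gene (-0.27 ± 0.105), and the transcription factor gene Nfe2 (-0.34 ± 0.13), each with adjusted p = 0.787 (limma). Pf4 was chosen after its value was seen. The third, Ppbp, averaged below the array medians in both genotypes.

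**Figure D4:**
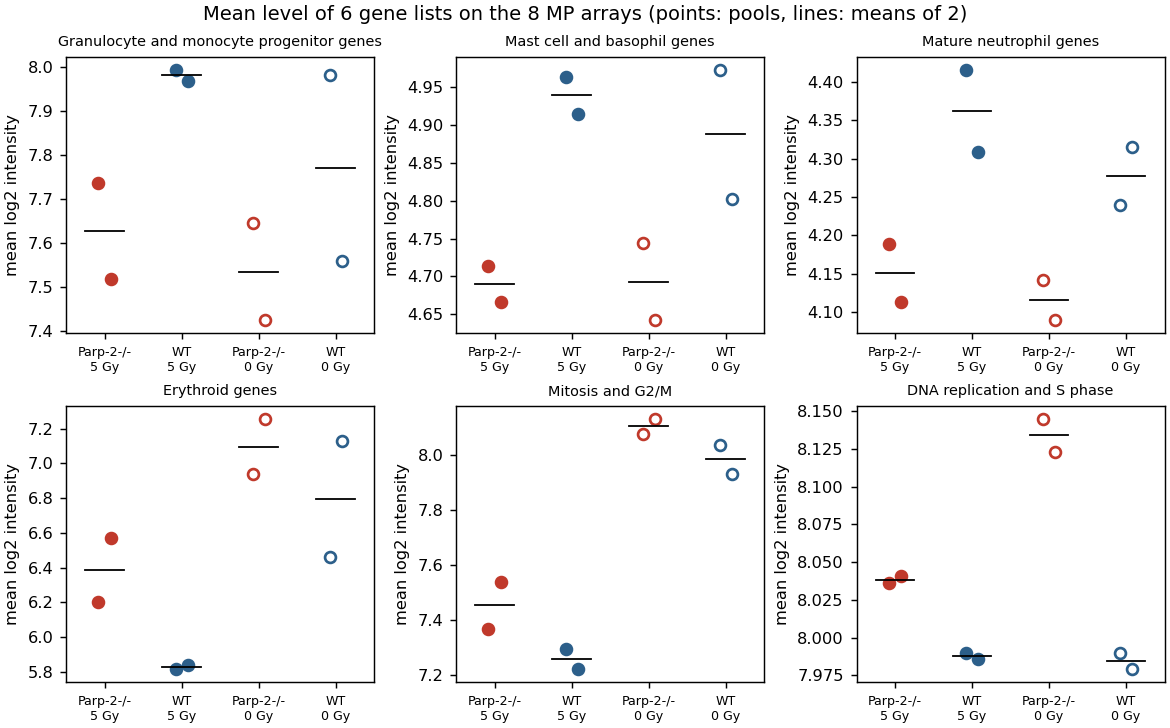
Mean log2 intensity of the measured members of 6 gene lists on each of the 8 MP arrays, by genotype and irradiation dose in Gy; points are pools and lines are means of 2 pools. Irradiated Parp-2-/- pools lie below irradiated WT pools for the 3 granulocyte, mast cell and neutrophil lists and above them for the erythroid, mitosis and replication lists; each panel has its own scale.

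Cell cycle genes had small differences that mostly pointed up. Of 34 mitosis and G2/M genes, 31 were above 0 (median 0.15). An unadjusted p under 0.05 was found for 9, all higher, against 2.5% of all tested rows. No overlap between genotypes in either state was found for 8, all higher, against 2.81% of all tested rows. Nek2, a centrosomal kinase gene, differed by 0.43 ± 0.15 (adjusted p = 0.775) and the spindle gene Aspm by 0.42 ± 0.17 (adjusted p = 0.787). The mean level of the mitosis list was 7.37 and 7.54 on the irradiated Parp-2-/- arrays and 8.08 and 8.13 on the unirradiated ones, against 7.30 and 7.22 on the irradiated WT arrays and 8.04 and 7.93 on the unirradiated ones. Both genotypes thus had lower levels after irradiation, and the genotypes did not overlap within a state. Of 36 replication genes, 28 were above 0 (median 0.11) and 3 had an unadjusted p under 0.05, all higher, against 2.5% of all tested rows. Rrm1, a ribonucleotide reductase subunit gene, differed by 0.32 ± 0.09 (adjusted p = 0.611). The mean level of the replication list was 8.04 to 8.14 on the Parp-2-/- arrays and 7.98 to 7.99 on the WT arrays. In LSK cells, mitosis and replication genes had medians of 0.08 and 0.16. 

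Repair and damage-response lists differed little. Of 21 PARP family and glycohydrolase genes, Parp2 alone passed. Parp1 read 8.53 and 8.51 on the irradiated Parp-2-/- arrays and 8.65 and 8.36 on the unirradiated ones, against 8.46 and 8.47 on the irradiated WT arrays and 8.42 and 8.21 on the unirradiated ones (0.12 ± 0.10, adjusted p = 0.955). Its genotypes overlapped in the unirradiated state. Parp3, the third break-activated family member, differed by -0.10 ± 0.09 (adjusted p = 0.963), and Parg, which degrades ADP-ribose chains, by 0.13 ± 0.11 (adjusted p = 0.968). After Parp2, the differences largest in size in this list were those of Macrod2 at 0.40 ± 0.15 (adjusted p = 0.775; its other rows gave -0.06 to 0.16) and Parp6 at -0.36 ± 0.09 (adjusted p = 0.533). Of 21 single-strand break and base excision repair genes, 0 had an unadjusted p under 0.05 and the values ran between -0.29 and 0.23.

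Of 31 double-strand break repair and checkpoint genes, 0 passed and the median was 0.02. Xrcc5, which encodes the Ku80 subunit of end joining, differed by 0.70 ± 0.15 (adjusted p = 0.41). Of 29 p53 targets of arrest and feedback, 0 had an unadjusted p under 0.05 (median -0.03). Of 14 apoptosis targets, 2 were lower at that threshold, against 3.25% of all tested rows. These 2 were the BH3-only genes Pmaip1 (-0.56 ± 0.16, adjusted p = 0.65, limma) and Bcl2l11 (-0.42 ± 0.14, adjusted p = 0.74, limma). Pmaip1, which encodes Noxa, read 6.46 and 6.63 on the irradiated Parp-2-/- arrays and 5.18 and 5.10 on the unirradiated ones, against 7.32 and 7.54 on the irradiated WT arrays and 5.65 and 5.09 on the unirradiated ones. The irradiated genotypes stood apart and the unirradiated ones overlapped, with an interaction of -0.66 (unadjusted p = 0.0333, not called after adjustment).

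**Figure D5:**
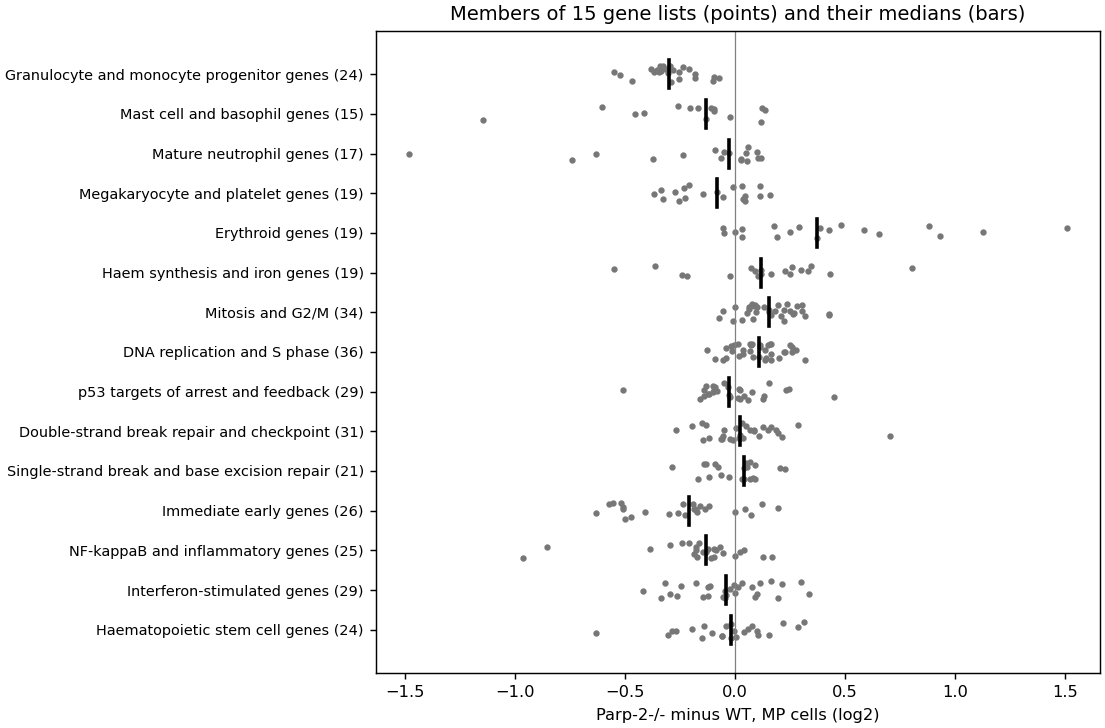
Genotype difference in MP cells (Parp-2-/- minus WT, log2) of the members of 15 gene lists, 1 point a gene, with the number of measured members in brackets and black bars at the medians. The granulocyte and monocyte points all lie below 0 (24 of 24) and 16 of 19 erythroid points lie above 0.

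Immediate early and inflammatory lists leaned lower, and the other stress and immune lists did not share 1 direction. Of 26 immediate early genes, 22 were below 0 (median -0.21). At an unadjusted p under 0.05 there were 3, all lower, against 3.25% of all tested rows. Among these 3 were Dusp1 (-0.57 ± 0.19) and Fos (-0.41 ± 0.14), with adjusted p = 0.74 for each (limma). Fos was chosen after its value was seen. The same list had a median of -0.25 in LSK cells. Its mean level was 7.073 and 6.471 on the unirradiated Parp-2-/- arrays, against 6.967 and 6.815 on the unirradiated WT arrays. For the NF-kappaB list these levels were 5.935 and 5.343 against 5.877 and 5.532. The genotypes thus overlapped in the unirradiated state, while the irradiated Parp-2-/- pools lay below the irradiated WT pools in both lists. Of 25 NF-kappaB and inflammatory genes, 21 were below 0 (median -0.13), with the chemokine gene Ccl3 at -0.97 ± 0.39 (adjusted p = 0.803). Interferon-stimulated genes were split, with 11 above and 18 below 0. Among 21 antioxidant NRF2 targets, 10 were above 0 and 11 below (median -0.0002). At an unadjusted p under 0.05, 4 were higher in Parp-2-/- cells, including Gclc, and 3 lower, against 2.5% and 3.25% of all tested rows. Nqo1 was also among the higher ones (adjusted p = 0.65), but it averaged 4.47 in Parp-2-/- cells and 3.92 in WT cells, and since the 4 WT arrays lay below their medians the size of its difference is not measured. Of 10 heat shock genes, 8 were above 0 (median 0.08) and 3 did not overlap between genotypes, all higher, against 2.81% of all tested rows. Hsph1 differed by 0.44 ± 0.10 (adjusted p = 0.476). Of 17 nuclear receptors and partners tied to Parp-2, 0 had an unadjusted p under 0.05. Nor did any of 21 ribosomal protein genes (0 of 21), although 20 of them were below 0, with a median of -0.03.

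Marker lists of other cell types were set beside these results, although a sort for c-Kit without lineage markers removes mature B, T, NK and macrophage cells. B lymphocyte genes averaged 4.16 to 4.31 on the Parp-2-/- arrays and 4.27 to 4.36 on the WT arrays, with 11 of 16 differences below 0. At an unadjusted p under 0.05, against 3.25% of all tested rows, there were 2, each lower. They were Vpreb1 (mean level 7.07, -0.66 ± 0.23, adjusted p = 0.75, limma) and Cd79b (mean level 5.91, -0.30 ± 0.13, adjusted p = 0.845, limma). T and NK cell genes averaged 3.79 to 3.88 on the Parp-2-/- arrays and 3.75 to 3.93 on the WT arrays, and endothelial and stromal genes 4.16 to 4.29 on the Parp-2-/- arrays and 4.25 to 4.36 on the WT arrays. Macrophage genes averaged 4.47 to 4.60 on the Parp-2-/- arrays and 4.47 to 4.67 on the WT arrays. Stem cell genes averaged 5.36 to 5.61 on the Parp-2-/- arrays and 5.41 to 5.54 on the WT arrays. The part of the progenitor makeup in any result above was not tested.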

How the data were processed

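Messenger RNA of 16 cell pools was measured on Affymetrix Mouse Gene 1.0 ST arrays, 1 array a pool. The authors deposited log2 intensities of transcript clusters; per the submitters' processing notes, the tools were R 2.15, affy 2.10, limma and RMA, with no roles given. The log2 base was read from the values, and which arrays were normalised together is not given in the sources used here. Array medians lay between 4.74 and 4.92. Of 34760 rows, 22961 carried at least 1 symbol and were tested, and no gene was named from the 1321 rows with several. The 8 MP arrays were fitted in limma 3.58.1 (R 4.3.3) with genotype and irradiation as terms, 5 residual and 5.01 prior degrees of freedom; group-mean fits gave the states and the interaction. The number of arrays limits the precision, and p-values measure the spread between pools. The code was tested on simulated data. Chromosome and gene order came from RefSeq (GRCm38.p6). For a listed gene, the row with the highest mean was used. Named genes were Parp2, Parp1, Parp3, Parg and Ccnb1ip1, the 10 rises and 10 falls whose genotypes did not overlap (called rows by size, then the lowest p, leaving out predicted, small RNA and receptor multigene families), the top 3 of each list, and the neighbours of Parp2. The members and lists were chosen with earlier results of these data known. Pool numbers were not used to pair the samples in the main fits. Over all tested rows the correlations of deviations of equal numbers ran between -0.0289 and 0.227, which cannot exclude pairing in some genes. In every MP group pool 2 had a lower mean level than pool 1 for the granulocyte and monocyte list and the mast cell list. For the erythroid list pool 2 had the higher mean level in every MP group. Whether equal pool numbers share a source was not tested. The labels give no batch or scan date.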

Additional observations from a re-analysis of the deposited data

Results flagged for a closer look

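Ccnb1ip1 was singled out because its genotype difference in MP cells and in LSK cells differed by the test of that difference: the MP difference was 3.09 log2 units larger than the LSK difference (16-array fit, limma adjusted p = 2.96e-05). The size carries a limit, since Ccnb1ip1 read below the array median on the 4 WT MP arrays and on all 8 LSK arrays.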

How the results depend on the processing

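The main effect called 4 rows. Array weights gave 7 calls and the inclusion of rows without a symbol 1, while the other alternatives gave 3 to 6, and leaving out single arrays gave 1 to 4 (1 without irradiated Parp-2-/- pool 1, irradiated Parp-2-/- pool 2 or irradiated WT pool 2). In the main effect, Ccnb1ip1 was called in all 16 alternative fits, Parp2 in 12 of 16 and Rnase12 in 7 of 15. With the pool number as a replicate block, a pairing that was not established, the main effect had 6 calls. Cpox was among them (limma adjusted p = 0.0181), and the irradiated cells had 6 calls in place of 1. In irradiated cells, 16 arrays and the trended prior gave 2 calls each and array weights 3, and leaving out single arrays 1 to 2 (2 without unirradiated WT pool 1 or 2). In unirradiated cells, leaving out single arrays gave 1 to 6 calls, 6 without unirradiated WT pool 1 and 2 without either irradiated Parp-2-/- pool. The interaction gave 0 to 1 calls, 1 without irradiated Parp-2-/- pool 1 or unirradiated WT pool 1. The cell type difference gave 1 to 6 calls when single arrays were left out, 6 without unirradiated Parp-2-/- LSK pool 1, 2 or 3 without the irradiated Parp-2-/- LSK pools and 3 without either unirradiated WT LSK pool; its own filter, on rows above the median on at least 8 of the 16 arrays, gave 0 calls because it removes the Ccnb1ip1 row, which the filter for the MP fits (at least 4 of the 8 MP arrays) keeps. The Parp2 difference in limma ran from -1.564 to -1.396 over the alternatives. Taken instead as the mean of the 2 states' differences, as in the permutation test, it ran from -1.549 to -1.339 with single arrays left out and was -1.438 after further quantile normalisation and -1.444 with the replicate block, where p = 0.125 is the smallest its sign changes allow (exact permutation). The cause of the other changes was not tested. A low signal limits Ccnb1ip1, Rnase12, Cysltr2, Nqo1 and Ppbp, for which every array of at least 1 genotype read below its median, and Slc39a14, Atp7b, Ano10 and S100a9, for which some arrays did.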
